A study of Mus musculus with 10 samples.

Results

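The reelin signalling pathway was read here through 10 genes: the ligand Reln, the receptors Vldlr and Lrp8, the adaptor Dab1, the kinases Fyn and Src, the adaptors Crk and Crkl, the exchange factor Rapgef1, and Pafah1b1, which encodes the dynein regulator LIS1. The members were chosen by symbol for their place in the pathway, with earlier results of these data known, and are 10 of 53379 genes in the count tables. All 10 passed the minimum of 10 reads on average per library and were among the 11551 genes tested.

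In embryos lacking Cdkn1c in the Emx1+ lineage, Reln rose 6.74-fold on the mean and Dab1 fell to 0.513 of the control mean. All 3 cKO libraries lay above all 7 controls for Reln and below all 7 for Dab1. The other 8 members did not pass the test. In the same comparison, 7 of 8 tested markers of Cajal-Retzius cells rose and 3 of 9 markers of projection neurons fell, as given below beside Reln and Dab1.

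Reelin is a large secreted glycoprotein that guides the migration and layering of cortical neurons. In the embryonic cortex it is made mainly by Cajal-Retzius cells of the marginal zone, and interneurons make it later. Migrating projection neurons bind it through VLDLR and APOER2 (encoded by Lrp8), whose clustering lets FYN and SRC phosphorylate the intracellular adaptor DAB1. Phosphorylated DAB1 recruits CRK and CRKL with the exchange factor encoded by Rapgef1, which activates RAP1 and through it adhesion by N-cadherin and integrins. Another branch runs through PI3K, AKT and the tau kinases, and DAB1 also binds LIS1. DAB1 is degraded once it has been phosphorylated.

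Transcriptomes were obtained by Smart-Seq2 RNA-seq of sorted cells from E16 neocortex, with 400 cells and 1 embryo per library. The 3 cKO-Cdkn1c-MADM-7 embryos carried the Cdkn1c-flox allele on both homologs of chromosome 7, the one with the GT and the one with the TG cassette of MADM-7, and the 7 control MADM-7 embryos carried it on neither. Both groups thus had both MADM cassettes and were heterozygous for Emx1-Cre, which recombines in the Emx1+ lineage of the cortex, in a mixed C57BL/6J, CD1 background. MADM (mosaic analysis with double markers) labels cells through Cre-driven recombination between homologous chromosomes. GFP+, tdT+ and GFP+/tdT+ cells were pooled in the sort, so each library mixes cells with maternal, paternal and no uniparental disomy of chromosome 7, as well as cell types of the Emx1+ lineage.

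The libraries held 1738220 to 3362487 reads on genes. Cdkn1c, the imprinted gene encoding the cell cycle inhibitor p57KIP2, was at 3.94 to 10.8 CPM (read counts scaled to a fixed library size) in cKO and at 67.5 to 131 CPM in control libraries, which fits every genotype label. Over all genes tested, 364 of 11551 (3.15%) passed an adjusted p of 0.05 by edgeR's quasi-likelihood test with Benjamini-Hochberg adjustment, of which 262 (2.27%) were higher and 102 (0.883%) lower in cKO. Markers of projection neurons, radial glial progenitors and intermediate progenitors were read in every library, while 7 of 9 vascular, blood and microglial markers were too low to test. The share of uniquely aligned reads outside genes split the libraries at its widest gap into a set at 5.47% to 8.64% (cKO 3 and controls 1, 2, 6 and 7) and a set at 12.8% to 16.7% (cKO 1 and 2 and controls 3, 4 and 5). Values within these sets stand beside the results. The first set holds 1 cKO library, so its values are given without a test, and with the few libraries of the second many calls were lost there.

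Of the 10 members, 2 (20%) passed the test, 1 in each direction. Both were also the only members whose groups did not overlap, which held for 6% of all genes tested, 3.32% with cKO higher and 2.68% with cKO lower. Crkl also had an unadjusted p under 0.05, as did 16.4% of all genes. The median log2 fold change of the members was -0.01, against 0.01 over all genes tested. With a typical standard error of 0.27 on the log2 scale, changes well under 2-fold could often not be told from the spread between embryos.

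**Figure D1:**
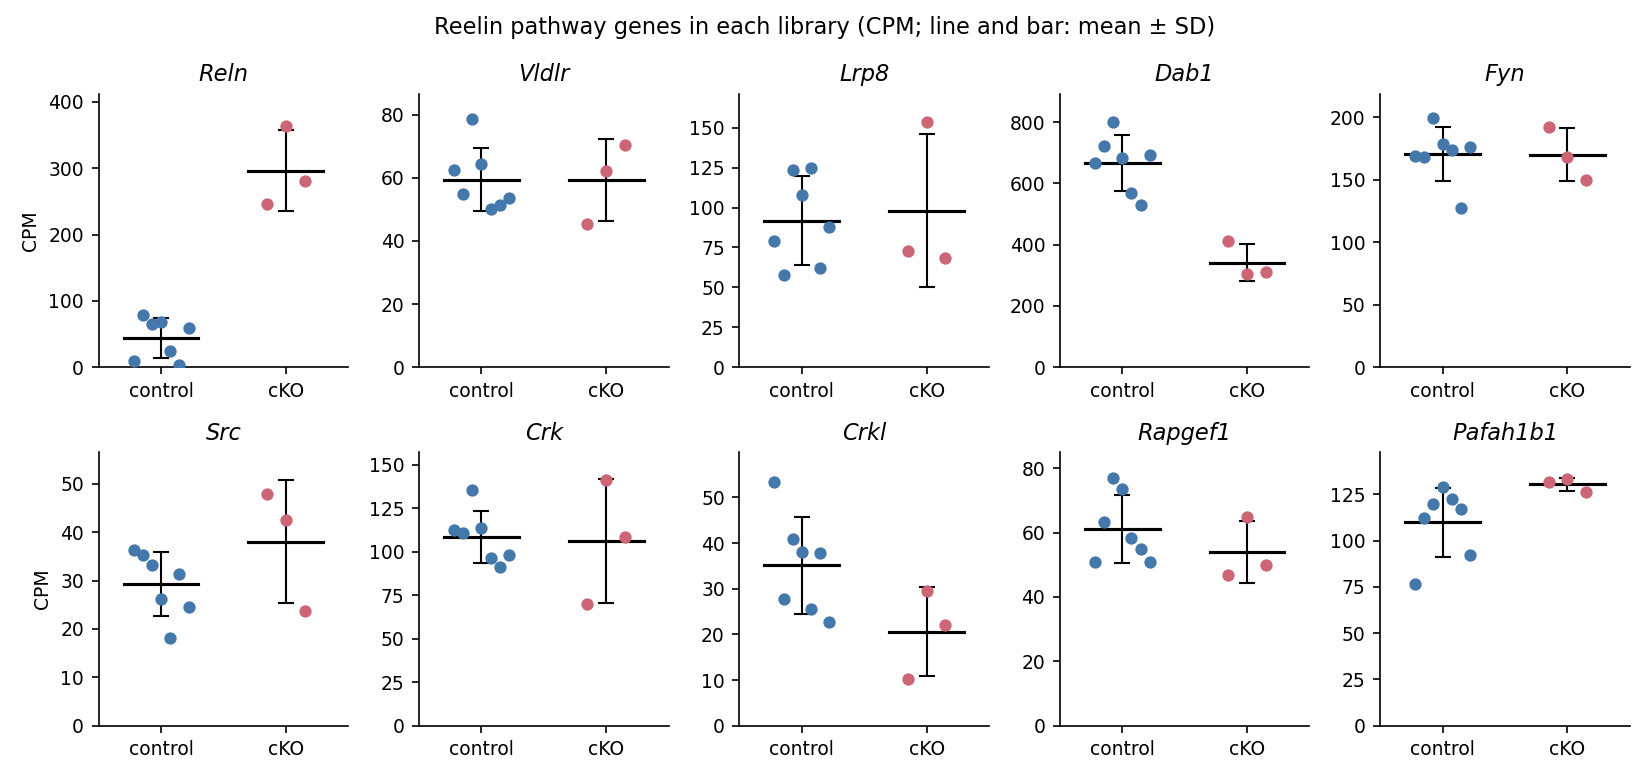
CPM of each of the 10 members in the 7 control (blue) and 3 cKO (red) libraries, one panel per gene with a linear axis from 0, with a line at the mean and a bar of ± 1 SD. Only the panels of Reln and Dab1 show groups that do not overlap.

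Reln (ENSMUSG00000042453.14, GRCm38 chromosome 5, 21884454 to 22344702, minus strand) had 728, 924 and 660 reads in cKO 1, 2 and 3. Control libraries had 8 to 221 reads, with a median of 164. In CPM, the cKO libraries were at 246, 364 and 280, and the controls at 2.88 to 78.8 with a median of 58.3. The lowest cKO library thus stood well above the highest control. The controls themselves were uneven: controls 2, 3, 4 and 7 were between 58.3 and 78.8 CPM, while controls 1, 5 and 6 were at 9.80, 24.5 and 2.88 CPM.

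The log2 fold change of Reln in cKO against control was 2.71 (SE 0.41, 95% interval 1.84 to 3.59, or 3.57-fold to 12.0-fold), with an adjusted p of 9.49e-04 by edgeR with Benjamini-Hochberg adjustment over all genes. Control libraries averaged 44.0 ± 30.8 CPM (SD, n = 7), against 297 ± 60.9 CPM (SD, n = 3) in cKO. Within the set with fewer reads outside genes, the cKO library was at 280 CPM against a control mean of 37.5 CPM (log2 fold change 2.89). Within the other set the means were 305 and 52.7 CPM (log2 fold change 2.502, edgeR adjusted p = 0.0114). In a library of pooled cells, more cells of a type and more RNA per cell cannot be told apart, for this and every other level given here. The antisense gene Gm10475 shares 246 exon bases with Reln, and reads that fall on both genes are not counted for either.

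Most Cajal-Retzius markers rose together with Reln. Of a list of 10 markers, 8 could be tested and 7 of these rose in cKO, with a median log2 fold change of 2.78. Their summed level, all 10 included, was 316 to 643 CPM in cKO and 20.0 to 165 CPM in control libraries, with no overlap. The 7 that rose were Lhx1 (log2 fold change 3.68), Ndnf (3.19), Car10 (2.97), Lhx5 (2.86), Trp73 (2.69), Calb2 (2.47) and Nhlh2 (1.84), with edgeR adjusted p-values of 2.31e-04 to 0.00439. Lhx1 and Car10, with control medians of 3 and 1 reads, reached the read minimum only through the cKO libraries, so being tested favoured a rise. Both are counted in the 7 and in the median. Under DESeq2 the calls of Ndnf (adjusted p = 0.236), Car10 (adjusted p = 0.228) and Trp73 (adjusted p = 0.0807) were lost, with their direction kept, and that of Car10 was also lost in edgeR with the replicate numbers as a block (2.22, adjusted p = 0.0567). Over the 7 markers, the log2 fold changes were 2.41 to 4.79 within the set with fewer reads outside genes and 1.46 to 3.04 within the other, where Ndnf alone passed (edgeR adjusted p = 0.0394, against 0.0544 to 0.191 for the other 6). Trp73 encodes p73, a defining marker of these cells, and was at 20.9 to 35.2 CPM in cKO against 0 to 11.4 CPM in controls. Cxcr4, a chemokine receptor, was at a log2 fold change of 0.66 (SE 0.44, edgeR adjusted p = 0.506). Ebf2 and Ebf3 were too low to test, with 17 to 19 reads of Ebf2 in each cKO library and 0 or 1 in each control.

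In the log2 ratio of Reln to the summed Cajal-Retzius markers within a library, a measure chosen after the values were seen, the groups overlapped. It was -1.06, 0.20 and -1.20 in the cKO libraries and ran from -4.92 to 0.09 in the controls, with the lowest value in control 6. Calb2 and Nhlh2 made up most of the sum in every library. In control 6 they were at 46.0 and 34.9 of 87.0 CPM, while Trp73, Lhx1, Lhx5, Ndnf and Car10 had no reads. The ratio thus mainly sets Reln against Calb2 and Nhlh2. The cKO mean was -0.69 ± 0.77 (SD, n = 3) and the control mean -1.51 ± 1.64 (SD, n = 7). The part of the Cajal-Retzius markers in the Reln result was not tested further.

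Interneuron markers were also positive. All 8 of 10 that could be tested had log2 fold changes above 0, with a median of 1.21. Gad1, Lhx6 and Dlx6os1 reached the read minimum only with the cKO libraries counted, so the filter favoured a positive sign for them. Only Dlx2, a homeobox gene of GABAergic precursors, passed the test (log2 fold change 1.63, SE 0.41, edgeR adjusted p = 0.0354). The Dlx2 call was lost without cKO 1, cKO 3 or any of controls 3 to 7, with edgeR adjusted p-values of 0.0580 to 0.152, and with the replicate numbers as a block (log2 fold change 1.07, edgeR adjusted p = 0.243). It was at 2.05 and 1.43 within the first and second set of libraries (edgeR adjusted p = 0.332 in the second). The summed interneuron markers were at 51.2 to 169 CPM in cKO and 18.0 to 119 CPM in controls and overlapped. Sst, which encodes somatostatin, was at a log2 fold change of 0.12 (SE 0.82). Summed vascular, blood and microglial markers were at 28 to 1358 CPM in cKO and 1.77 to 908 CPM in controls, a spread in both groups that comes from the globin genes among the 2 of 9 that could be tested. Their part in the result was not tested.

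Among the 5 genes whose log2 CPM followed Reln most closely over the 10 libraries were Trp73, Zcchc12, Ndnf and Spon1, each with a Pearson's r of 0.95. Over the 7 controls alone, their r with Reln was 0.92, 0.92, 0.89 and 0.95 in the same order. These are descriptions: the libraries form 2 groups that differ in Reln, and these genes were picked as the closest of all genes tested. Zcchc12 averaged 11.21 ± 11.04 CPM (SD, n = 7) in controls and 106 ± 33.7 CPM (SD, n = 3) in cKO and rose by 3.16 on the log2 scale (edgeR adjusted p = 3.26e-04). Spon1, which encodes the extracellular matrix protein F-spondin, did not pass the test at 1.29 (edgeR adjusted p = 0.139).

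Both reelin receptor genes had cKO means inside the range of the control libraries. Vldlr (ENSMUSG00000024924.14, chromosome 19, 27216484 to 27254231, plus strand) was at 45.2, 62.2 and 70.4 CPM in cKO and 50.1 to 78.6 CPM in controls, with a control median of 54.9 CPM. The groups overlapped, and cKO 1 was the lowest of all libraries. Vldlr did not pass the test, at a log2 fold change of -0.03 (SE 0.20, edgeR adjusted p = 0.966) with a 95% interval of 0.735-fold to 1.31-fold.

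Lrp8 (ENSMUSG00000028613.14, chromosome 4, 107802261 to 107876840, plus strand) was at 72.5, 154 and 68.3 CPM in cKO and at 57.4 to 125 CPM in controls, with a median of 87.8 CPM. The library cKO 2 was the highest of all 10, and the other cKO libraries lay in the lower part of the control range. Lrp8 was at a log2 fold change of 0.10 (SE 0.28, edgeR adjusted p = 0.899), with a 95% interval of 0.717-fold to 1.60-fold, and its sign turned without cKO 2 (-0.39). The log2 ratio of Lrp8 to Vldlr per kb of exon averaged 0.52 ± 0.41 (SD, n = 7) in controls and 0.58 ± 0.67 (SD, n = 3) in cKO, and the groups overlapped.

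Dab1 (ENSMUSG00000028519.16, chromosome 4, 103619359 to 104744844, plus strand), the central intracellular adaptor of the pathway, had 1218, 770 and 733 reads in cKO and 977 to 2723 in controls. In CPM, the cKO libraries were at 411, 303 and 311, and the controls at 529 to 801 with a median of 683. All 3 cKO libraries were below the lowest control, and cKO 1 was the closest to the controls. Control libraries averaged 666 ± 91.9 CPM (SD, n = 7), against 342 ± 60.0 CPM (SD, n = 3) in cKO.

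Dab1 was at a log2 fold change of -0.96 (SE 0.15, 95% interval -1.29 to -0.64, or 0.410-fold to 0.642-fold), with an adjusted p of 0.00142 by edgeR with Benjamini-Hochberg adjustment. Within the set with fewer reads outside genes, the cKO library was at 311 CPM against a control mean of 652 CPM (log2 fold change -1.08). Within the other set the means were 357 and 684 CPM (log2 fold change -0.93, edgeR adjusted p = 0.113).

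Some projection neuron markers fell together with Dab1. Of 9 markers, all tested, 3 fell and none rose, and 6 did not pass, with 8 of the 9 log2 fold changes below 0 and a median of -0.74. Among the 3 were the neurogenic factor genes Neurod6 (-0.98, edgeR adjusted p = 4.71e-04) and Neurod2 (-0.75, edgeR adjusted p = 0.00565). Neurod6 was at -0.72 and -1.12 within the first and second set of libraries and Neurod2 at -1.16 and -0.55 (edgeR adjusted p = 0.0214 and 0.334 in the second). The summed level of the 9 was 4544 to 6464 CPM in cKO and 7220 to 10097 CPM in controls, without overlap. Tbr1, a gene of early-born deep layer neurons, was at a log2 fold change of -0.18 (SE 0.19, edgeR adjusted p = 0.705).

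The log2 ratio of Dab1 to the summed projection neuron markers, also chosen after the values were seen, averaged -3.76 ± 0.19 (SD, n = 7) in controls and -4.03 ± 0.16 (SD, n = 3) in cKO. The groups overlapped, with -4.21 to -3.91 in cKO and -4.08 to -3.52 in controls. The difference of the means was -0.27, against -0.96 for Dab1 alone. Tubb3 (control mean 4533 CPM, cKO mean 2992 CPM) and Neurod6 (2305 and 1173 CPM) made up most of the sum. The ratio thus mainly sets Dab1 against Tubb3 and Neurod6. None of 8 radial glial markers (summed 1310 to 2500 CPM in cKO, 1491 to 2519 CPM in controls) and none of 6 intermediate progenitor markers (831 to 1011 and 461 to 1204 CPM) passed the edgeR test, with 1 and 2 of them at an unadjusted p under 0.05. The part of the projection neuron markers in the Dab1 result was not tested further.

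**Figure D2:**
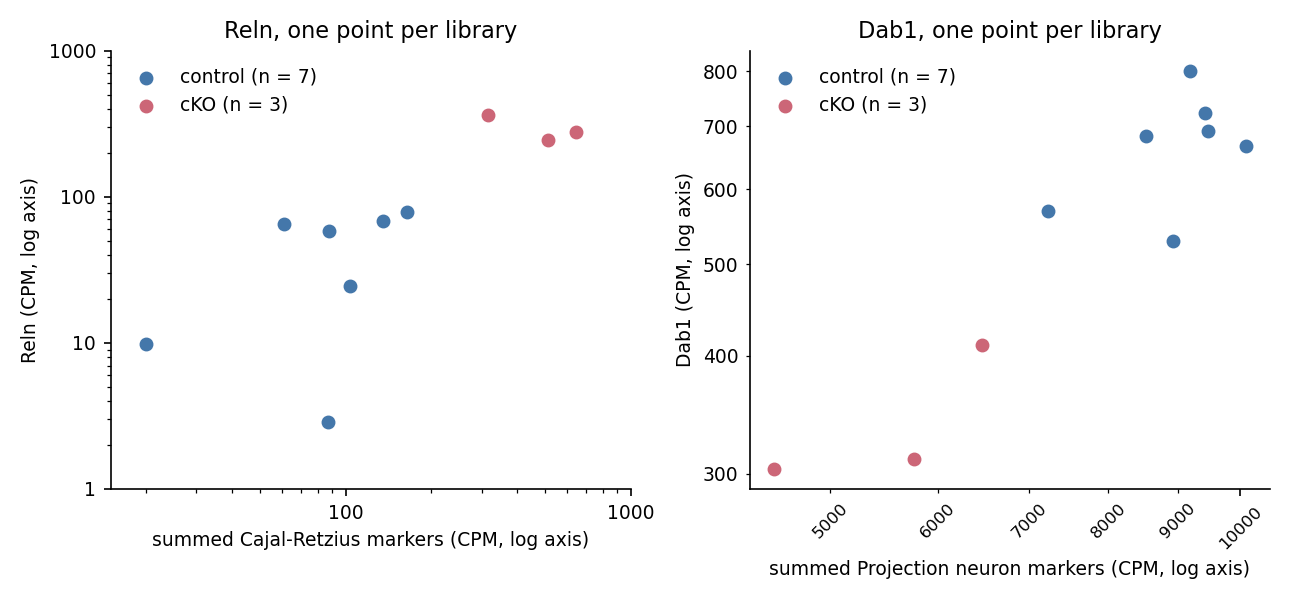
Left, CPM of Reln against the summed CPM of 10 Cajal-Retzius markers, and right, CPM of Dab1 against the summed CPM of 9 projection neuron markers, one point per library with log axes on both. The 3 cKO libraries (red) lie at the upper right of the 7 controls (blue) for Reln and at the lower left for Dab1.

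The Src-family kinases FYN and SRC phosphorylate DAB1. Fyn (ENSMUSG00000019843.14, chromosome 10, 39368855 to 39565381, plus strand) was at 193, 168 and 150 CPM in cKO and at 127 to 199 CPM in controls, with a median of 174 CPM. The cKO libraries spread through the control range, and control 6 stood alone as the lowest library. Fyn was at a log2 fold change of 0.00 (SE 0.15, edgeR adjusted p = 0.999), with a 95% interval of 0.802-fold to 1.25-fold.

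Src (ENSMUSG00000027646.15, chromosome 2, 157418444 to 157471862, plus strand) was at 47.9, 42.6 and 23.8 CPM in cKO and at 18.1 to 36.3 CPM in controls, with a median of 31.3 CPM. The libraries cKO 1 and 2 were above every control, while cKO 3 was in the lower part of the control range. Src did not pass at a log2 fold change of 0.37 (SE 0.25, edgeR adjusted p = 0.506, 95% interval 0.898-fold to 1.87-fold). Its sign differed between the sets of libraries: it was -0.43 in the set with fewer reads outside genes and 0.78 in the other (edgeR adjusted p = 0.424). The log2 ratio of Fyn to Src per kb averaged 2.57 ± 0.43 (SD, n = 7) in controls and 2.22 ± 0.38 (SD, n = 3) in cKO, with overlap.

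CRK and CRKL are related adaptors that bind phosphorylated DAB1. Crk (ENSMUSG00000017776.15, chromosome 11, 75679259 to 75706908, plus strand) was at 69.8, 141 and 108 CPM in cKO and at 91.0 to 135 CPM in controls, with a median of 111 CPM. The cKO libraries thus included both the lowest and the highest of the 10. Crk was at a log2 fold change of -0.04 (SE 0.20, edgeR adjusted p = 0.945), with a 95% interval of 0.730-fold to 1.30-fold.

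Crkl (ENSMUSG00000006134.3, chromosome 16, 17451987 to 17487434, plus strand) had 30, 75 and 52 reads in cKO and 44 to 147 in controls. In CPM, the cKO libraries were at 10.1, 29.6 and 22.1, and the controls at 22.8 to 53.3 with a median of 37.8. All 3 cKO libraries were below the control median, and 4 of 7 controls were above the highest cKO library, but the groups overlapped. The difference on the log2 scale was -0.82 (SE 0.33, 95% interval 0.351-fold to 0.916-fold), with an unadjusted p of 0.023 and an adjusted p of 0.212 by edgeR with Benjamini-Hochberg adjustment, so Crkl did not pass.

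The log2 ratio of Crk to Crkl reads per kb of exon, which does not depend on library scaling, was 2.88, 2.35 and 2.39 in cKO and 1.17 to 2.20 in controls. All 3 cKO libraries lay above all 7 controls. The control mean was 1.76 ± 0.38 (SD, n = 7) and the cKO mean 2.54 ± 0.30 (SD, n = 3). It is given as a description, without a test, and the share of other gene pairs whose ratios separate in this way was not computed. The highest ratio, in cKO 1, rests on 30 reads of Crkl.

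Rapgef1 (ENSMUSG00000039844.19, chromosome 2, 29619720 to 29740978, plus strand), which encodes an exchange factor of RAP1, was at 46.9, 65.0 and 50.1 CPM in cKO and at 50.8 to 77.1 CPM in controls, with a median of 58.2 CPM. The groups overlapped, with the 2 lowest libraries both cKO. Rapgef1 was at a log2 fold change of -0.19 (SE 0.20, edgeR adjusted p = 0.698), with a 95% interval of 0.654-fold to 1.17-fold. The pseudogene Gm9823 shares 327 exon bases with Rapgef1, so reads on that stretch are not counted for either gene.

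Pafah1b1 (ENSMUSG00000020745.15, chromosome 11, 74673949 to 74724670, minus strand), the LIS1 gene that is mutated in lissencephaly, was at 132, 134 and 126 CPM in cKO and at 76.6 to 129 CPM in controls, with a median of 117 CPM. The cKO libraries lay close together and above 6 of 7 controls. Pafah1b1 was at a log2 fold change of 0.25 (SE 0.17, edgeR adjusted p = 0.501), with a 95% interval of 0.933-fold to 1.52-fold.

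**Figure D3:**
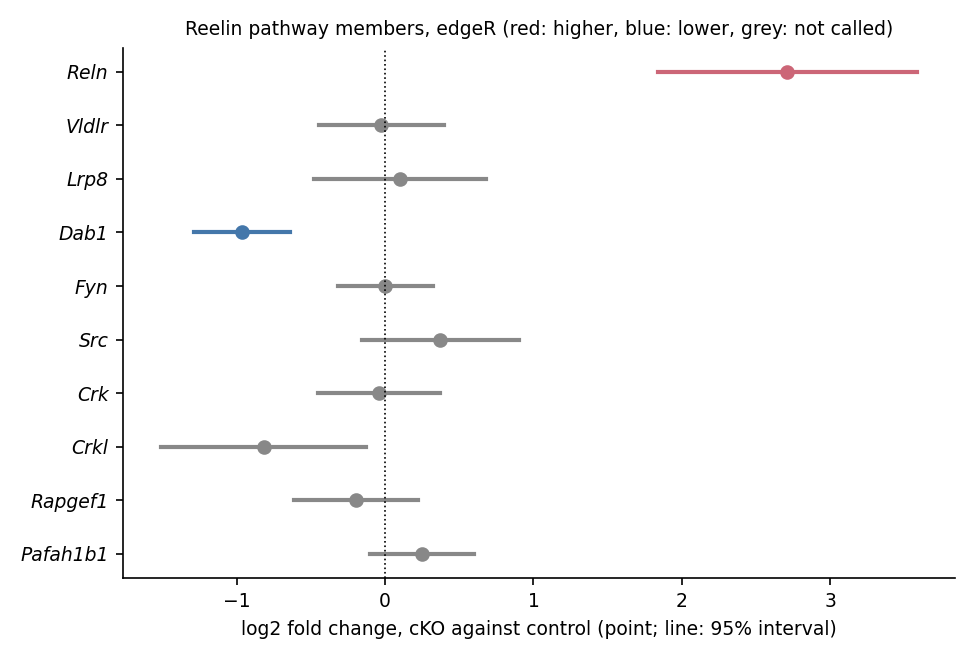
Log2 fold change of cKO against control for each member from edgeR (point) with its 95% interval (line), in the order of the pathway. The interval of Reln lies at 1.84 to 3.59 and that of Dab1 at -1.29 to -0.64; the interval of Crkl is also below 0, at -1.51 to -0.13, but its adjusted p was 0.212.

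Levels per length placed Dab1 first among the members in controls, at 84.2 ± 11.6 CPM per kb of exon (SD, n = 7). Fyn followed at 39.1, Crk at 22.9, Pafah1b1 at 11.4, Lrp8 at 8.73, Rapgef1 at 8.29, Crkl at 6.97, Src at 6.70, Vldlr at 5.89 and Reln at 1.85 CPM per kb. Neighbours in this order had separate control ranges at the top, from Dab1 to Fyn, Fyn to Crk and Crk to Pafah1b1, and at the bottom, from Vldlr to Reln. From Pafah1b1 down to Vldlr the ranges of neighbours overlapped.

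In cKO the order began with the same 4 genes, with Dab1 at 43.2 ± 7.58 CPM per kb (SD, n = 3) next to Fyn at 39.0 ± 4.92 CPM per kb (SD, n = 3), and the ranges of Dab1 and Fyn overlapped. Reln went from rank 10 to rank 5, at 12.5 ± 2.57 CPM per kb (SD, n = 3). Crkl was last, at 4.08 ± 1.94 CPM per kb (SD, n = 3). The exon lengths were those of the union of all annotated exons, so a gene with long exons that these cells do not use is placed too low.

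**Figure D4:**
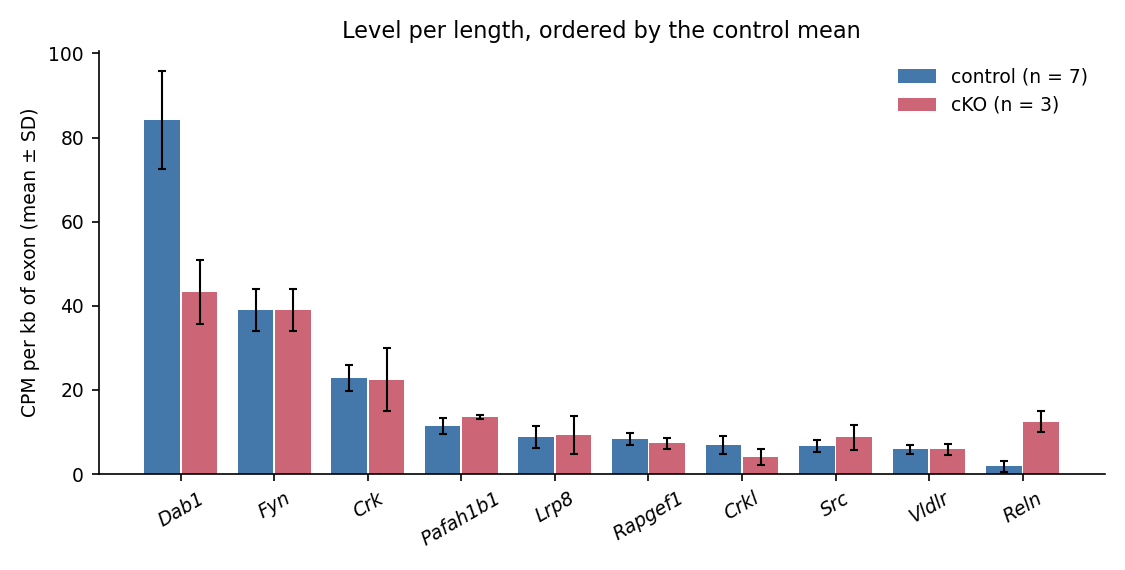
Mean level per length (CPM per kb of exon, linear axis from 0, bars with ± 1 SD) of the 10 members in control (blue, n = 7) and cKO (red, n = 3) libraries, ordered by the control mean. The Dab1 bar falls from 84.2 to 43.2, next to Fyn at 39.0, and the Reln bar goes from 1.85 to 12.5.

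Beyond the members, 60 other genes of the pathway in 5 lists were read from the same fit. Of these, 55 could be tested and 3 (5.45%, against 3.15% of all genes) passed, 2 higher and 1 lower. Their median log2 fold change was 0.01, the same as over all genes. The other 5, among them Thbs1, Dab2 and Itga5, were too low to test.

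Cdh2 (chromosome 18, 16588877 to 16809246), which encodes N-cadherin, an adhesion molecule downstream of RAP1 in migrating neurons, fell. It was at 78.9, 108 and 108 CPM in cKO and at 153 to 240 CPM in controls, without overlap. The log2 fold change was -0.99 (SE 0.17, edgeR adjusted p = 0.00297), with -0.88 and -1.01 within the first and second set of libraries (edgeR adjusted p = 0.129 in the second). It was the 1 call among 11 tested genes of the RAP1 and adhesion arm, whose median was 0.18. The part of the projection neuron markers in this result was not tested.

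App (chromosome 16, 84949685 to 85173766), which encodes the amyloid precursor protein, a partner of the reelin receptors, rose by 0.53 on the log2 scale (SE 0.14, edgeR adjusted p = 0.0469). It was at 232, 204 and 180 CPM in cKO and at 120 to 157 CPM in controls, without overlap. The call lay close to the threshold, and within the first and second set of libraries App was at 0.36 and 0.58 (edgeR adjusted p = 0.324 in the second). Leaving out 1 library ended it for every library except cKO 3, with edgeR adjusted p-values of 0.0522 to 0.157 in the calls lost. It was also lost under 5 other settings, with adjusted p-values of 0.0516 under limma-voom to 0.223 in edgeR with the replicate block. No other of the 12 tested genes of reelin processing and receptor turnover passed, and their median was 0.08.

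Cdk5r2 (chromosome 1, 74854934 to 74857732), which encodes the CDK5 activator p39, rose by 2.06 on the log2 scale (SE 0.51, edgeR adjusted p = 0.0310) from few reads. It had 55, 10 and 10 reads in cKO and 2 to 10 in controls, or 18.6, 3.94 and 4.24 CPM against 1.16 to 3.57 CPM. The groups did not overlap, but cKO 1 was far above the other cKO libraries, and without it Cdk5r2 had too few reads to be tested. The call was lost without any of controls 1, 3, 4, 5 or 7 (edgeR adjusted p = 0.0544 to 0.0709) and within the second set of libraries (log2 fold change 2.96, edgeR adjusted p = 0.147). It was also lost under 4 other settings, with adjusted p-values of 0.0573 in edgeR with the outside-gene share as covariate to 0.138 under limma-voom. It was the 1 call among 15 genes of the PI3K, AKT and tau kinase arm, whose median was -0.01.

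None of 8 tested genes among the partners of DAB1 and its turnover passed, against an unadjusted p under 0.05 for 1 of them, with a median of -0.14. The smallest p-values there were those of Nck1, an adaptor that binds phosphorylated DAB1 (log2 fold change 0.81, SE 0.31, edgeR adjusted p = 0.182), and Dab2ip (-0.43, SE 0.21, edgeR adjusted p = 0.332). None of 9 LIS1 and dynein partners passed either, with 1 at an unadjusted p under 0.05 and a median of -0.01. Among them Nde1, a LIS1 partner in dividing progenitors, was at 0.55 (SE 0.24, edgeR adjusted p = 0.249) and Clip1, a microtubule plus-end protein gene, at 0.34 (SE 0.19, edgeR adjusted p = 0.409). Nde1 was at 31.0 CPM in cKO 1 and at 63.8 and 72.6 CPM in cKO 2 and 3, and without cKO 1 it passed, at 0.86 (edgeR adjusted p = 0.0258).

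**Figure D5:**
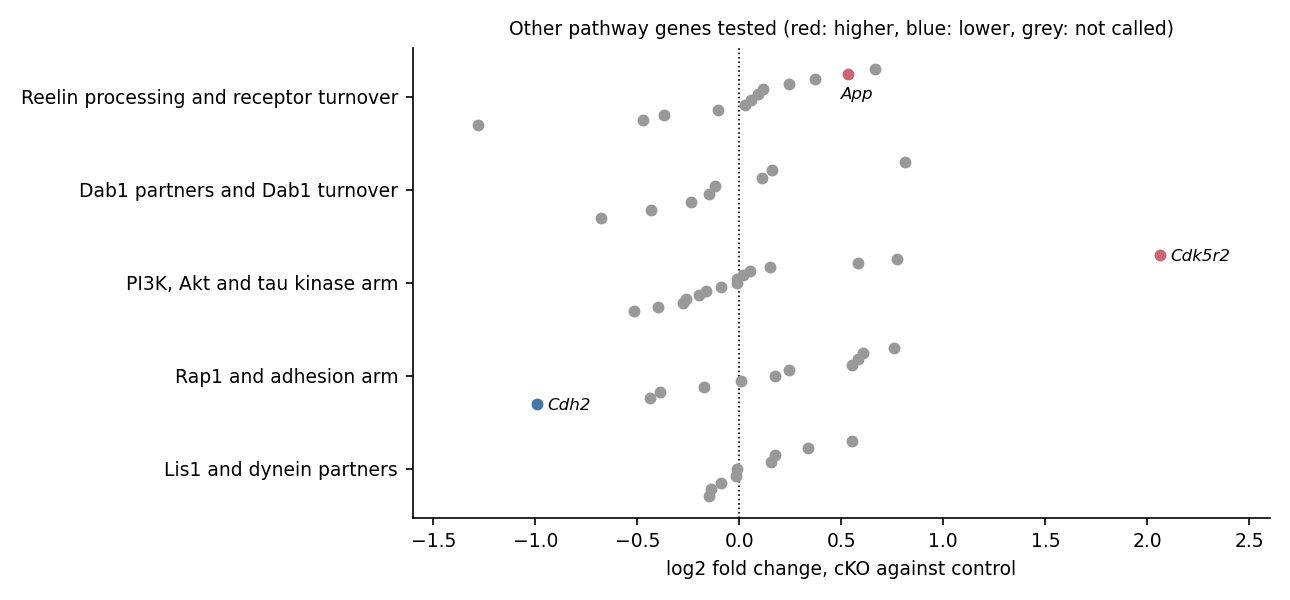
Log2 fold change of cKO against control for the 55 other pathway genes tested, one row per list, with the spread within a row only for legibility. The genes that passed are named: Cdk5r2 at 2.06, App at 0.53 and Cdh2 at -0.99; the other 52 (grey) did not pass.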

How the data were processed

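Sorted cells were lysed and amplified by Smart-Seq2 from polyA RNA, without RNA extraction or molecular identifiers. Per the submitters' processing notes and the study's methods, reads were aligned with STAR 2.5.0c to GRCm38, and bedtools 2.26.0 is also named. The authors deposited raw read counts per gene, not normalized, of uniquely aligned reads on GENCODE genes, once ignoring strand and once per strand. The column that ignores strand was used, since the libraries were not stranded (50.3% to 50.5% of reads on the sense column). Reads overlapping several genes are left out of these counts.

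Symbols, positions and exon lengths came from another GENCODE release of the same build: 50604 of 53379 genes matched with version, 2670 without, and 105 did not match. Genes averaging 10 or more reads per library were compared with edgeR 4.0.16 in R 4.3.3 (TMM, glmQLFit, glmQLFTest, genotype alone, Benjamini-Hochberg adjustment over 11551 genes). CPM used TMM library sizes. Intervals and p-values cover the spread between embryos and counting error. The biological coefficient of variation was 28.3%. In simulated data of this design with 11398 genes, edgeR recovered 50.0% of 2-fold and 90.8% of 4-fold changes, with 7.38% false calls. No libraries within a group were duplicates (chi-square per degree of freedom 4.93 to 23.8 over 24 pairs).

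The members and lists were chosen with earlier results of these data known. Genes named were the members; per pathway list those with an adjusted p under 0.05, otherwise the 2 smallest p; Cdkn1c; the 5 genes closest to Reln; Cajal-Retzius markers; and other markers that passed. Some genes under this rule are not reported here. Values of Sst and Tbr1, and of the overlapping Gm10475 and Gm9823, were added after their values were seen. Alternatives used DESeq2 1.42.0, limma-voom (limma 3.58.1), other size factors, no filter, robust dispersion, the summed strand columns, covariates, a replicate block and each library left out. The comparison within the library sets was added after the data had been seen. Figures were drawn with matplotlib 3.10.9.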

Additional observations from a re-analysis of the deposited data

Results flagged for a closer look

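Among the 7 controls, 3 genes had 1 library standing apart from the others, with a gap of 0.573, 0.588 and 0.616 of the group's range, of 32 genes checked, and chance flags about 1 in 20. Fyn was at 127 CPM in control 6, against 168 CPM in the nearest control and 199 CPM in the farthest. Control 6 also had the fewest Reln reads. Without it, the log2 fold change of Fyn was -0.06. Car10, a Cajal-Retzius marker, was at 7.14 CPM in control 2, against 2.94 CPM in the nearest control. Neurod2 was at 459 CPM in control 5, the shallowest library, against 519 CPM in the nearest control and 556 CPM in the farthest.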

How the results depend on the processing

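Reln and Dab1 were the 2 members called under all 19 alternative settings that kept both library sets. The log2 fold change of Reln ran from 2.502 to 3.30 (edgeR adjusted p 1.38e-40 to 0.0241) and that of Dab1 from -1.12 to -0.90 (1.04e-08 to 0.0143). The lowest p-value of each came from edgeR without the filter, where the SE of Reln was 0.19, against 0.41 in the main fit. In the set with more reads outside genes (2 cKO libraries), Reln was the 1 member below the threshold, and Dab1 was not (-0.93, adjusted p = 0.113). The set with fewer (the low set) holds 1 cKO library, whose fit takes the spread from the controls alone and is no test of the genotype. There Reln was at 2.89 and Dab1 at -1.08. Over all genes, 364 calls became 961 without the filter (701 higher, 260 lower), 55 within the set with more reads outside genes, and 271 to 424 with a library left out (the low set gave 67, no test of the genotype); DESeq2 called 510 and limma-voom 297. The 3 calls among other pathway genes became 1 under limma-voom, either covariate or the replicate block, 0 within the set with more reads outside genes (and 0 in the low set, no test), and 1 to 4 with a library left out; the cause was not tested.

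The genotypes share replicate numbers 1 to 3, but same-numbered libraries did not deviate together (r = 0.04, -0.10 and -0.20), so the main fit did not pair them. The labels do not say what the numbers mark, and correlations of so few libraries cannot exclude a shared litter or batch. With the replicate block, 210 genes were called (140 higher, 70 lower), and Reln (adjusted p = 0.0121) and Dab1 (adjusted p = 0.00404) were among them.

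Some members that did not pass, and Clip1, changed sign. Vldlr ran from -0.16 to 0.14 with a library left out and was 0.33 within the low set. Lrp8 was -0.026 and -0.074 under the covariates, -0.075 and -0.066 within the sets, and ran from -0.39 to 0.30 with a library left out. Fyn was -0.022 without the filter, -0.065 and -0.056 under the covariates, -0.073 with the block, -0.11 and -0.019 within the sets, and ran from -0.10 to 0.084 with a library left out. Src was -0.43 and Crk 0.062 within the low set, and Crk ran from -0.31 to 0.20. Clip1 was -0.057 within the low set. None of these passed. Crkl did not pass in any of the 19 (adjusted p 0.0936 to 0.518), with Crkl at 30 to 147 reads a library.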
